A study of Mus musculus with 6 samples.

Results

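Focal adhesions are the sites where a cell holds on to its surroundings, and the genes described here encode their integrins, adaptors and kinases. They are 39 genes named by symbol, all 39 of which were found among the 27179 genes of the deposited table. RNA was measured by poly(A) RNA sequencing of bulk cerebral cortex from C57BL/6N mouse embryos at E18.5, shortly before birth. The 3 CAP1-KO embryos carried Cap1 flx/flx together with Nestin-CRE, and the 3 Control embryos carried Cap1 flx/flx without Cre. Both groups therefore carried the flanked Cap1 alleles, and the promoter that drives Cre, that of Nestin, acts in neural progenitors. Cells of other origin may keep Cap1, but bulk tissue does not show which cells lost it. No group carried Cre on unflanked alleles, so effects of Cre itself and of CAP1 loss cannot be told apart. The CAP1-KO libraries are FCRE3, FCRE4 and FCRE5 and the Control libraries FF1, FF2 and FF4, and values given per library stand in those orders. The series asks how the actin-binding protein CAP1 bears on gene expression in neurons.

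Integrins are paired alpha and beta chains that span the cell membrane, bind matrix proteins outside the cell and are coupled to actin filaments inside it. Talin and kindlin switch integrins on from within, vinculin strengthens the link to actin under tension, LIM-domain adaptors gather at strained sites, and FAK and Src kinases signal from the complex. In the embryonic cortex integrins anchor the end feet of radial glia to the basement membrane at the brain surface, and they also act in vessels and in migrating neurons. Vinculin is a known target of the transcription factor SRF, whose coactivators are held back by unpolymerised actin.

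The 6 libraries held 32443864 to 36302598 reads, so a level of 1 CPM (the reads of a gene scaled to the size of its library) stood for 31.2 to 37.3 reads. Cap1 was measured at 86.6, 85.9 and 82.9 CPM in CAP1-KO libraries, against 194, 193 and 166 CPM in Control libraries, and fell by 1.10 on the log2 scale (limma adjusted p = 0.000283). FF4 stood apart from the other Control libraries. The summed level of 10 markers of cortical projection neurons was 2152 to 2339 CPM in CAP1-KO libraries, against 3240 CPM in FF1, 3347 CPM in FF2 and 2184 CPM in FF4. The summed level of 10 markers of striatal and ventral forebrain neurons was 287 to 319 CPM in CAP1-KO libraries, against 184 CPM in FF1, 181 CPM in FF2 and 340.1 CPM in FF4. These striatal markers did not all move alike. With all libraries 7 had a log2 fold change above 0 and 3 below it, and the only marker of this list that passed, Ppp1r1b, was lower in CAP1-KO (limma adjusted p = 0.00689). Embryo sex was also uneven, since Xist, which is expressed from the inactive X chromosome of females, was at 2398 to 2653 CPM in all CAP1-KO libraries, against 2296 CPM in FF2, 0.577 CPM in FF1 and 2.05 CPM in FF4. Results are therefore also given without FF4 and, for the genes that passed the test, against FF2 alone.

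Of the 39 genes, 4 rose in CAP1-KO cortex: Tgfb1i1, Vcl, Fermt2 and Itgb1. No member fell. The test was limma on log2(CPM + 1) across the 13885 genes that averaged 1 CPM or more, with p-values adjusted over all of them and a threshold of 0.05. All 39 members were above that level. In the same fit 0.562% of genes tested rose and 0.403% fell. At an unadjusted p under 0.05, 9 members were higher in CAP1-KO, where 7.74% of all genes tested were, and 7 were lower, where 15.3% of all genes tested were. With limma-voom on recovered reads 3 members rose and 0 fell. The median log2 fold change was 0.05 over the members and -0.01 over all genes tested, with 21 members above 0 and 18 below it. Levels of the 3 CAP1-KO and the 3 Control libraries did not overlap in 16 members, of which 11 were higher in CAP1-KO, against a background of 11.1%, and 5 were lower, against a background of 14.6%. By the authors' deposited table, there were 4 members higher at an FDR under 0.05, where 0.401% of its genes were, and 0 were lower, where 0.412% of its genes were. Those 4 were Tgfb1i1, Vcl, Fermt2 and Lpp, and Itgb1 stood at an FDR of 0.0515 in the authors' deposited table.

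**Figure D1:**
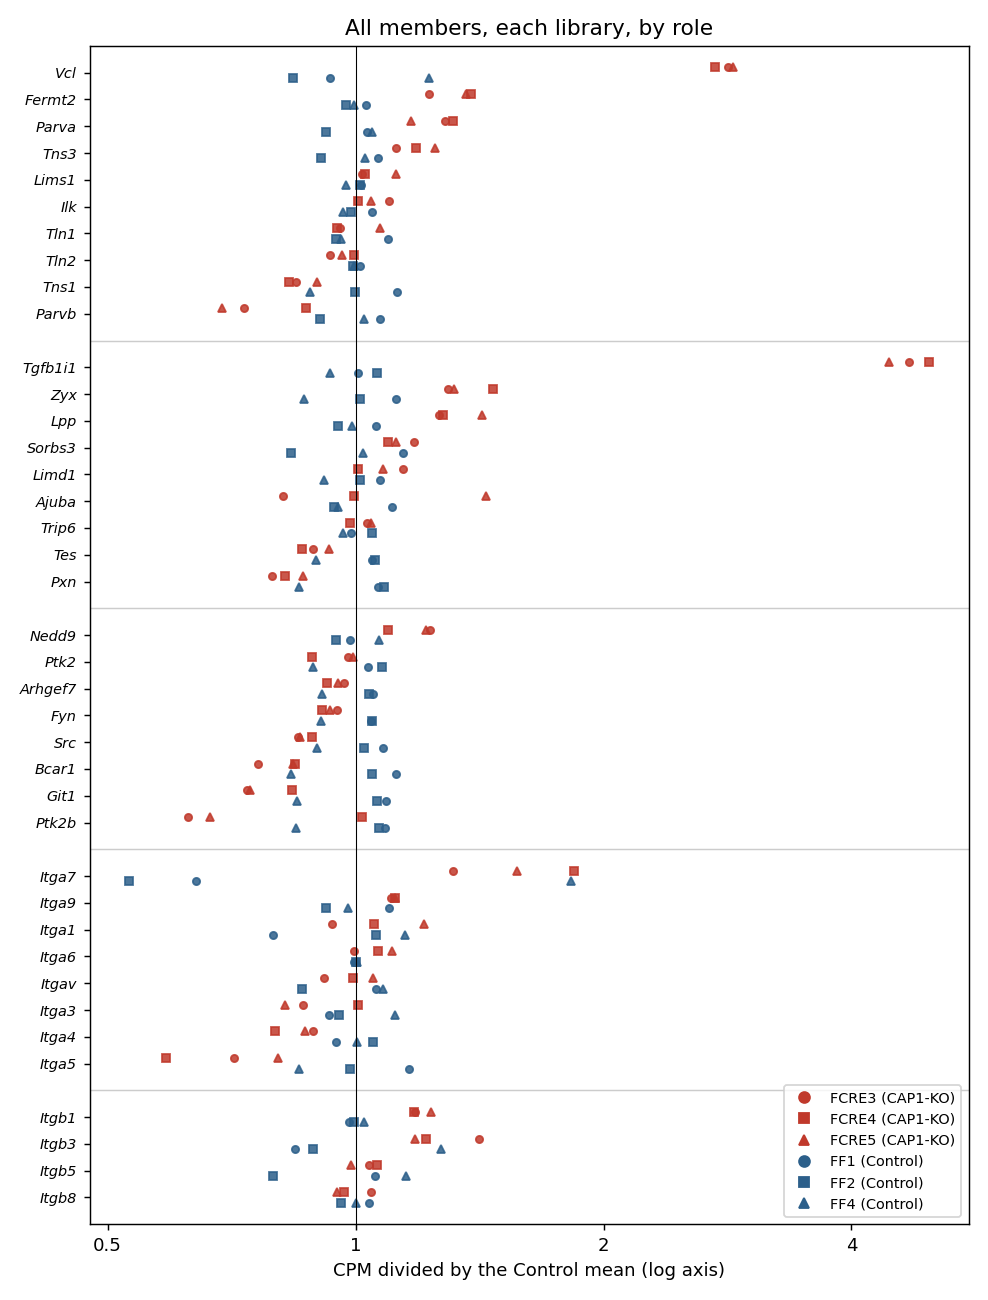
Each row is 1 of the 39 genes, grouped by role, and each symbol is 1 library, placed by its CPM divided by the mean of the 3 Control libraries on a log axis. Tgfb1i1 and Vcl lie far to the right in all 3 CAP1-KO libraries, and most other genes lie close to 1.

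Tgfb1i1, the paxillin relative also called Hic-5, a LIM-domain adaptor of focal adhesions, rose the most of the 39. It was measured at 46.0, 48.5 and 43.4 CPM in CAP1-KO libraries, against 9.84, 10.4 and 9.09 CPM in Control libraries. Every CAP1-KO library stood far above every Control library, and the spread within each group was small beside the gap. The means were 46.0 ± 2.55 CPM in CAP1-KO and 9.78 ± 0.651 CPM in Control (SD, n = 3 each), a ratio of 4.70. The log2 fold change was 2.12 with a standard error of 0.07 (limma adjusted p = 2.44e-05). The gene (gene number 21804) lies at chromosome 7, 128246812 to 128255699, in GRCm38. It ranked 1 by p-value among all genes of the authors' deposited table, with an FDR of 4.16e-07. Tgfb1i1 passed in all 13 alternative analyses, and its log2 fold change against FF2 alone was 2.04.

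Vcl encodes vinculin, which binds talin and actin filaments. Its level was 82.5, 79.4 and 83.5 CPM in CAP1-KO libraries, against 27.1, 24.4 and 35.7 CPM in Control libraries. The CAP1-KO libraries were close together and all far above Control, where FF4 was the highest. The means were 81.8 ± 2.14 CPM in CAP1-KO and 29.1 ± 5.91 CPM in Control (SD, n = 3 each), a ratio of 2.81. The log2 fold change was 1.48 with a standard error of 0.12 (limma adjusted p = 0.00177). The gene (gene number 22330) lies at chromosome 14, 20929383 to 21033676, in GRCm38. Vcl passed in all 13 alternatives, with log2 fold changes of 1.37 to 1.69, and stood at 1.70 against FF2 alone.

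Fermt2 encodes kindlin-2, which binds the tails of integrin beta chains and activates them together with talin. The CAP1-KO libraries held 81.0, 91.0 and 89.7 CPM, against 67.9, 64.3 and 65.7 CPM in Control libraries. The groups did not overlap, and FCRE3 was the lowest of the CAP1-KO libraries. The means were 87.2 ± 5.39 CPM in CAP1-KO and 65.9 ± 1.81 CPM in Control (SD, n = 3 each), with a log2 fold change of 0.40 and a standard error of 0.06 (limma adjusted p = 0.0279). The gene (gene number 218952) lies at chromosome 14, 45458792 to 45530310, in GRCm38. Fermt2 no longer passed in limma without FCRE5 (adjusted p = 0.168), without FF1 (adjusted p = 0.113), without FF2 (adjusted p = 0.129) or with the Xist level as a covariate (adjusted p = 0.204). Its log2 fold change stayed between 0.37 and 0.46 in all 13 alternatives and was 0.43 against FF2 alone.

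Itgb1 encodes the integrin beta chain that pairs with most of the alpha chains listed here. It was measured at 158, 157 and 165 CPM in CAP1-KO libraries, against 131, 133 and 137 CPM in Control libraries. The groups did not overlap, although the step between them was small. The means were 159.8 ± 4.17 CPM in CAP1-KO and 133 ± 2.93 CPM in Control (SD, n = 3 each), with a log2 fold change of 0.26 and a standard error of 0.04 (limma adjusted p = 0.0456). The gene (gene number 16412) lies at chromosome 8, 128685654 to 128733579, in GRCm38. This call lay near the threshold. It was lost in limma-voom (adjusted p = 0.0541), with no filter on low values (limma adjusted p = 0.0612) and with the Xist level as a covariate (limma adjusted p = 0.241). It was also lost in limma without FCRE3 (adjusted p = 0.152), FCRE4 (adjusted p = 0.0589), FCRE5 (adjusted p = 0.265), FF1 (adjusted p = 0.234) or FF2 (adjusted p = 0.216), with log2 fold changes of 0.24 to 0.27. Against FF2 alone its log2 fold change was 0.26.

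**Figure D2:**
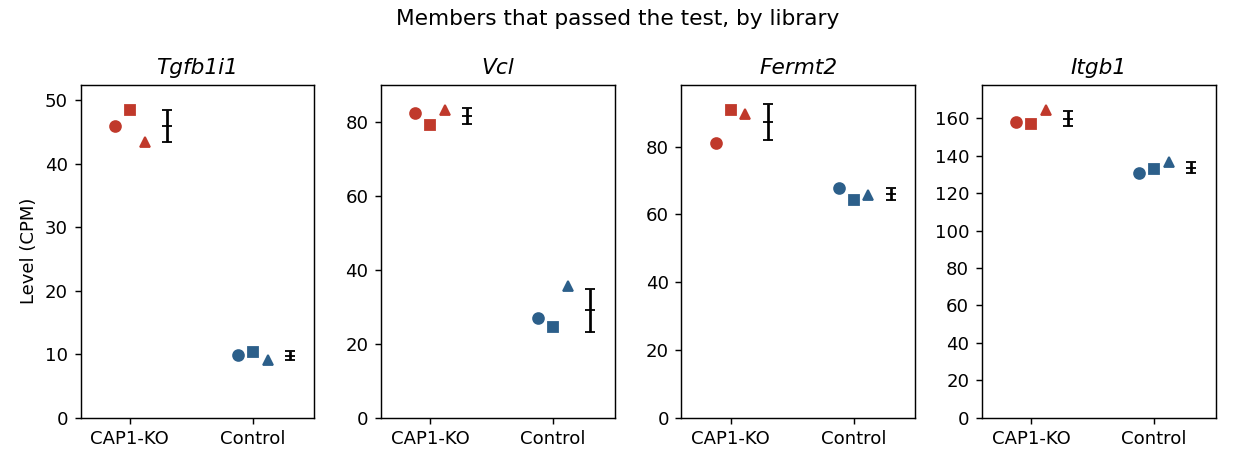
Level in CPM of the 4 genes that rose, 1 panel per gene with its own axis starting at 0. Points are the 3 CAP1-KO and 3 Control libraries and the bar beside them is the mean with its SD. The groups do not overlap in any panel, and the gap is widest for Tgfb1i1, at 46.0 CPM in CAP1-KO and 9.78 CPM in Control.

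The promoters of the risen genes are shown because actin-regulated genes often carry a CArG box, the motif bound by SRF, or a TEAD motif, bound by the partners of YAP. RefSeq promoters (GRCm38.p6, 250 bases before to 50 after the start) were at hand for 28 of the 39 members. Those of Vcl, Fermt2 and Itgb1 are printed 5′ to 3′ on the gene's own strand, with motif matches in capitals. The Vcl stretch is chr14:20929148-20929382 on the plus strand, the Fermt2 stretch is the 30 bases around its match at chr14:45530250-45530279 on the minus strand, and the Itgb1 stretch is chr8:128685404-128685653 on the plus strand.
Vcl: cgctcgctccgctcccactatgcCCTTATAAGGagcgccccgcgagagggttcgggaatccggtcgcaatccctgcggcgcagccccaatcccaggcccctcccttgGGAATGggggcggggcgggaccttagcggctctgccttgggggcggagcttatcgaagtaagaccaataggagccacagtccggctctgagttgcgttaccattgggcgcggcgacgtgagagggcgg
Fermt2: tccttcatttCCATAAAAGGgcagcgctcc
Itgb1: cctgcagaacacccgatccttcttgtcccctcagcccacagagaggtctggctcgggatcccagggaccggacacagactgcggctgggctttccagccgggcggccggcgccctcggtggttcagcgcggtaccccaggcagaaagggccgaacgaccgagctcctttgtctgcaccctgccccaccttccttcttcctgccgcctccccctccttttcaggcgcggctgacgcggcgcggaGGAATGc

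Distances are counted from the start that the promoter table uses for each gene, which need not be the outermost annotated start. Vcl held a CArG box, CCTTATAAGG, which begins 227 bases before its start in the table (20929398), and a TEAD motif, GGAATG, which begins 143 bases before it, with no overlap between them. From the outermost start of Vcl (20929383) they begin 212 and 128 bases before. Fermt2 held a CArG box, CCATAAAAGG, which begins 204 bases before its start in the table (45530065). That box lies within the annotated gene, since it begins 41 bases past the outermost start of Fermt2 (45530310). Itgb1 held no CArG box in this window and a GGAATG that begins 7 bases before its start, which is the same in both. Both motifs were searched on both strands, the CArG box as CC and GG around 6 letters of A or T, and the TEAD motif as GGAATG or CATTCC. A CArG box stood in 3 of the 28 matched members and in 1.81% of all genes with a promoter in the table. The third was Trip6, whose CCAAAATTGG begins 1 base past its start in the table, and whose level was 12.2 ± 0.390 CPM in CAP1-KO and 11.9 ± 0.512 CPM in Control (SD, n = 3 each). A TEAD motif stood in 5 of the 28, Vcl, Itgb1, Trip6, Ajuba and Lpp, and in 16.6% of all genes in the table. A match is a description of letters and not a site of binding. No promoter was matched for Tgfb1i1, Parva, Pxn, Tln2, Ptk2, Ptk2b, Limd1, Sorbs3, Itga6, Itga7 and Itgb3.

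Of the 10 scaffold genes that join integrins to actin, Vcl and Fermt2 rose, none fell, and the median log2 fold change was 0.07. Kindlin and talin act together on integrin tails, and both talins overlapped between groups. Tln1 averaged 57.1 ± 3.88 CPM in CAP1-KO and 57.5 ± 4.70 CPM in Control, and Tln2 averaged 92.3 ± 3.07 CPM in CAP1-KO and 95.7 ± 1.01 CPM in Control (SD, n = 3 each). The 95% interval of the log2 fold change was -0.18 to 0.16 for Tln1 and -0.16 to 0.05 for Tln2. Integrin-linked kinase, PINCH and parvin form a fixed complex at the integrin tail. Ilk, which had the highest level per length of the scaffold genes, was measured at 119, 109.6 and 114 CPM in CAP1-KO libraries, against 114, 107 and 105 CPM in Control libraries, and the groups overlapped. Per kb of exon that was 41.6 ± 1.77 CPM in CAP1-KO and 39.6 ± 1.63 CPM in Control (SD, n = 3 each). Lims1, which encodes PINCH1, was measured at 54.4, 54.9 and 59.9 CPM in CAP1-KO libraries, against 54.3, 54.2 and 52.0 CPM in Control libraries. Its groups were separated by a hair, and its log2 fold change was 0.07 (limma adjusted p = 0.446).

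The alpha and beta parvins leaned opposite ways. Parva was measured at 32.3, 33.0 and 29.4 CPM in CAP1-KO libraries, against 26.0, 23.2 and 26.3 CPM in Control libraries, higher in every CAP1-KO library, with a log2 fold change of 0.32 (limma adjusted p = 0.0886). Parvb was measured at 11.6, 13.8 and 10.9 CPM in CAP1-KO libraries, against 17.0, 14.4 and 16.2 CPM in Control libraries, lower in every CAP1-KO library, with a log2 fold change of -0.37 (limma adjusted p = 0.111). Neither passed the test. Tns3, a tensin that binds integrin tails and actin, was measured at 33.1, 35.1 and 37.0 CPM in CAP1-KO libraries, against 31.5, 26.9 and 30.4 CPM in Control libraries, without overlap and with a log2 fold change of 0.24 (limma adjusted p = 0.129). Tns1, its relative, averaged 18.8 ± 0.768 CPM in CAP1-KO and 21.9 ± 2.66 CPM in Control (SD, n = 3 each), and its groups overlapped at FF4.

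Among the 9 LIM-domain and sorbin adaptors Tgfb1i1 rose, none fell, and the median log2 fold change was 0.10. Zyx encodes zyxin, which moves to strained actin fibres. Zyx stood at 39.4, 44.6 and 40.0 CPM in CAP1-KO libraries, against 34.1, 30.8 and 26.3 CPM in Control libraries. Lpp, of the zyxin family, was measured at 28.1, 28.5 and 31.8 CPM in CAP1-KO libraries, against 23.6, 21.3 and 22.1 CPM in Control libraries. Both were higher in all 3 CAP1-KO libraries without passing the test, with a log2 fold change of 0.44 for Zyx (limma adjusted p = 0.0839) and of 0.39 for Lpp (limma adjusted p = 0.0555). Both passed in limma when libraries were scaled to total reads, with adjusted p = 0.0363 for Zyx and adjusted p = 0.0369 for Lpp. That scaling shifted the log2 fold changes of all genes by a median of 0.06, and each of the genes passed in only 2 of the 13 alternatives. The other zyxin relatives Trip6, Ajuba and Limd1 overlapped between groups, with log2 fold changes of 0.03 to 0.10. Tes, the testin gene, had the highest level per length of the adaptors in Control. Its levels were 37.9, 36.7 and 39.6 CPM in CAP1-KO libraries, against 44.7, 45.1 and 38.2 CPM in Control libraries, so that FF4 lay within the CAP1-KO range. Pxn, the paxillin gene, likewise had FF4 within the CAP1-KO range, with 31.7, 32.9 and 34.6 CPM in CAP1-KO libraries, against 42.7, 43.5 and 34.2 CPM in Control libraries. Its log2 fold change was -0.26 (limma adjusted p = 0.157). Sorbs3, which encodes the vinculin-binding adaptor vinexin, averaged 8.50 ± 0.318 CPM in CAP1-KO and 7.52 ± 1.16 CPM in Control (SD, n = 3 each), with overlap.

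Because Tgfb1i1 and Pxn encode close relatives, their balance was taken within each library, as the share of Tgfb1i1 in the sum of both levels per length. That share was 68.0%, 68.4% and 64.8% in CAP1-KO libraries, against 25.3%, 26.0% and 28.0% in Control libraries. Tgfb1i1 was thus the larger of the pair in every CAP1-KO library and the smaller in every Control library. The share of Parva beside Parvb was 54.8%, 51.0% and 53.9% in CAP1-KO libraries, against 39.95%, 41.2% and 41.4% in Control libraries. Per length the larger member differed between the groups here too, but that crossing rests on the exon lengths used. In CPM Parva was the larger in both groups. Its mean was 31.6 CPM against 12.1 CPM for Parvb in CAP1-KO, and 25.2 CPM against 15.9 CPM in Control. Of 7 such pairs, 5 had shares that did not overlap between groups, which gave the smallest p that 3 against 3 allows in a two-sided exact permutation test (p = 0.1, adjusted p = 0.14 over the 7 pairs). The other 3 of these were Tns3 beside Tns1, with 72.8% ± 0.786 in CAP1-KO and 66.0% ± 2.95 in Control, Nedd9 beside Bcar1, with 29.1% ± 2.27 in CAP1-KO and 22.3% ± 3.71 in Control, and Src beside Fyn, with 31.7% ± 0.907 in CAP1-KO and 33.3% ± 0.666 in Control (SD, n = 3 each). The pair of Nedd9 and Bcar1 was chosen after its values were seen, and no share over other gene pairs was computed to set beside this count. Among single genes tested, 11.1% were higher and 14.6% lower in CAP1-KO without overlap. Tln1 beside Tln2 held 53.6% ± 1.90 in CAP1-KO and 52.9% ± 1.73 in Control (exact permutation p = 0.6), and Ptk2 beside Ptk2b held 76.3% ± 6.12 in CAP1-KO and 72.2% ± 0.970 in Control (exact permutation p = 0.4). For every pair the permutation test compared group means of the log2 ratio of the levels per length, not of the shares.

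**Figure D3:**
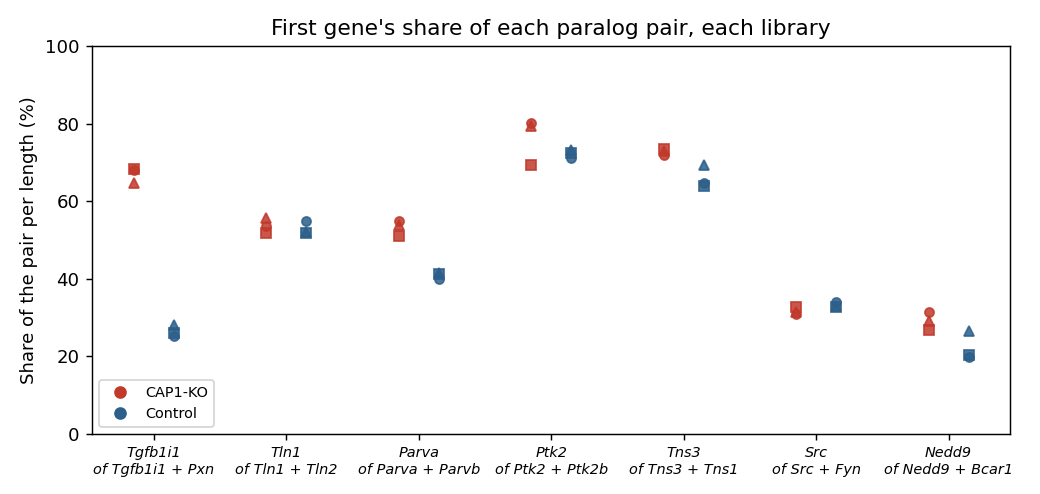
Share of the first gene in the summed level per length of each of 7 paralog pairs, in percent, with 1 point per library and CAP1-KO left of Control. The Tgfb1i1 share stands at 64.8% to 68.4% in CAP1-KO libraries and at 25.3% to 28.0% in Control libraries, and the talin and FAK pairs overlap.

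The 8 kinases and their docking or exchange partners held no gene that passed the limma test in either direction. Their median log2 fold change was -0.15, beside -0.01 over all genes tested. At an unadjusted p under 0.05, 1 of the 8 was higher and 3 were lower, beside 7.74% higher and 15.3% lower among all genes tested. Fyn, a Src-family kinase of neurons and glia, had the highest level per length, with 285, 273 and 279 CPM in CAP1-KO libraries, against 313, 314 and 273 CPM in Control libraries. The Control library FF4 matched the CAP1-KO libraries and the other Control libraries were above them. Src itself was measured at 128, 133 and 128 CPM in CAP1-KO libraries, against 162, 154 and 135 CPM in Control libraries, without overlap, and its log2 fold change was -0.21 (limma adjusted p = 0.146). Git1, a scaffold that carries the exchange factor encoded by Arhgef7 to adhesions, was measured at 133, 150.4 and 134 CPM in CAP1-KO libraries, against 196, 191 and 153 CPM in Control libraries. Its groups just failed to overlap, since FF4 stood close to FCRE4, and its log2 fold change was -0.36 (limma adjusted p = 0.111). Arhgef7 averaged 333 ± 7.90 CPM in CAP1-KO and 351 ± 27.3 CPM in Control (SD, n = 3 each), with overlap.

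Ptk2 encodes FAK, the kinase that integrin binding turns on, and Ptk2b its relative Pyk2. Ptk2 averaged 178 ± 10.9 CPM in CAP1-KO and 187 ± 18.6 CPM in Control (SD, n = 3 each). Ptk2b was measured at 28.4, 46.2 and 30.2 CPM in CAP1-KO libraries, against 49.3, 48.4 and 38.4 CPM in Control libraries. FCRE4 stood above FF4 there, so the groups overlapped. Nedd9 and Bcar1 encode docking proteins that FAK and Src phosphorylate. Nedd9 was the one gene of this role whose libraries were all higher in CAP1-KO, with 38.1, 33.9 and 37.8 CPM, against 30.5, 29.4 and 33.1 CPM in Control libraries, and a log2 fold change of 0.23 (limma adjusted p = 0.121). Bcar1 was measured at 59.6, 66.0 and 65.6 CPM in CAP1-KO libraries, against 87.5, 81.8 and 65.3 CPM in Control libraries, with FF4 again among the CAP1-KO libraries.

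Among the 12 integrin subunits Itgb1 rose, none fell, and the median log2 fold change was 0.06. Itgb1 also had by far the highest level per length, 39.2 ± 1.02 CPM per kb of exon in CAP1-KO and 32.7 ± 0.719 CPM per kb in Control (SD, n = 3 each). The other beta chains followed with Itgb5 at 5.22 CPM per kb in CAP1-KO and 5.07 in Control, Itgb8 at 1.60 in CAP1-KO and 1.62 in Control, and Itgb3 at 0.425 in CAP1-KO and 0.335 in Control. None of these 3 passed the test. Itga3, which encodes a laminin receptor chain, had the highest level per length of the alpha chains, with 21.9, 25.6 and 20.8 CPM in CAP1-KO libraries, against 23.6, 24.2 and 28.4 CPM in Control libraries. Its groups overlapped. In Control the order per length ran from Itgb1 through Itgb5, Itga3, Itga6, Itgav, Itgb8, Itga5, Itga4, Itga9, Itga1 and Itga7 to Itgb3. Of neighbours in that order, Itgb5 and Itga3, Itga5 and Itga4, Itga1 and Itga7, and Itga7 and Itgb3 overlapped in their Control ranges. The sum of the 8 alpha chains was 12.1, 13.1 and 12.8 CPM per kb in CAP1-KO libraries, against 12.9, 12.5 and 14.1 CPM per kb in Control libraries. So these 8 alpha chains in sum overlapped between groups where Itgb1 did not. Alpha chains outside the 39 genes, such as Itga10 at 1.55 CPM per kb in CAP1-KO and 1.72 in Control, are not in the sum.

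**Figure D4:**
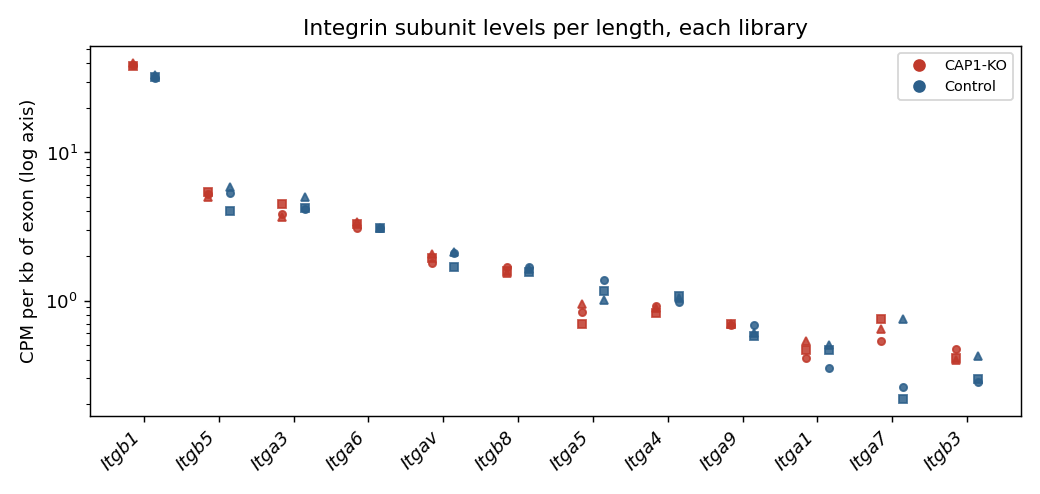
Level of the 12 integrin subunits in CPM per kb of exon on a log axis, in order of their Control mean, with 1 point per library. Itgb1 stands at 39.2 CPM per kb in CAP1-KO and 32.7 in Control, and every other subunit is below 6 CPM per kb in both group means.

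Single alpha chains leaned either way, and none passed the limma test. Itga5, the alpha chain of the main fibronectin receptor and abundant in blood vessels, was measured at 4.16, 3.43 and 4.69 CPM in CAP1-KO libraries, against 6.76, 5.75 and 4.99 CPM in Control libraries. All CAP1-KO libraries were lower, with a log2 fold change of -0.42 (limma adjusted p = 0.132). Itga4, which binds fibronectin and VCAM1, was measured at 12.8, 11.5 and 12.5 CPM in CAP1-KO libraries, against 13.6, 15.1 and 14.5 CPM in Control libraries, with a log2 fold change of -0.22 (limma adjusted p = 0.147). Itga9 was measured at 5.28, 5.34 and 5.33 CPM in CAP1-KO libraries, against 5.26, 4.41 and 4.68 CPM in Control libraries, and FF1 all but reached the CAP1-KO level. Its log2 fold change was 0.13 (limma adjusted p = 0.422). Itga7, a laminin receptor chain best known from muscle, was measured at 4.34, 6.09 and 5.19 CPM in CAP1-KO libraries, against 2.12, 1.76 and 6.04 CPM in Control libraries. FF4 lay at the CAP1-KO level and the other Control libraries far under it. Its log2 fold change was 0.65 with all libraries (limma adjusted p = 0.279) and 1.07 without FF4 (limma adjusted p = 0.000999). Itga7 passed in only 1 of the 13 alternatives, the one that leaves out FF4, a library singled out in these same data. Itga1, Itga3, Itga6 and Itgav overlapped between groups, with log2 fold changes of -0.15 to 0.09.

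Without FF4 far more genes passed in the whole table, with 9.36% of genes tested higher and 18.9% lower, and the members followed. Then 11 of the 39 were higher, namely Tgfb1i1, Vcl, Fermt2, Itgb1, Lpp, Zyx, Parva, Tns3, Nedd9, Itga7 and Itgb3, and 10 were lower, namely Pxn, Tes, Parvb, Tns1, Itga5, Src, Fyn, Git1, Bcar1 and Arhgef7. By role, the 8 kinases and partners had 5 lower and 1 higher, the 10 scaffold genes 4 higher and 2 lower, the 9 adaptors 3 higher and 2 lower, and the 12 integrins 3 higher and 1 lower. The median over the members was 0.04 without FF4. On the log2 scale FF4 lay nearer to the CAP1-KO mean than to the mean of FF1 and FF2 in 18 of the 39 members, against 63.8% of all genes tested. This held for 12 of the 17 members that were lower in CAP1-KO than in FF1 and FF2, and for 6 of the 22 that were higher. Such shares were not computed for all genes that were lower or higher, so this split cannot be called a trait of the members. Of the 4 genes that rose with all libraries, all 4 also rose without FF4, with log2 fold changes of 2.08 for Tgfb1i1, 1.63 for Vcl, 0.39 for Fermt2 and 0.27 for Itgb1. FF4 was singled out in these same data, and leaving it out raised the calls over the whole table. That these 4 passed again is therefore no independent support.

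**Figure D5:**
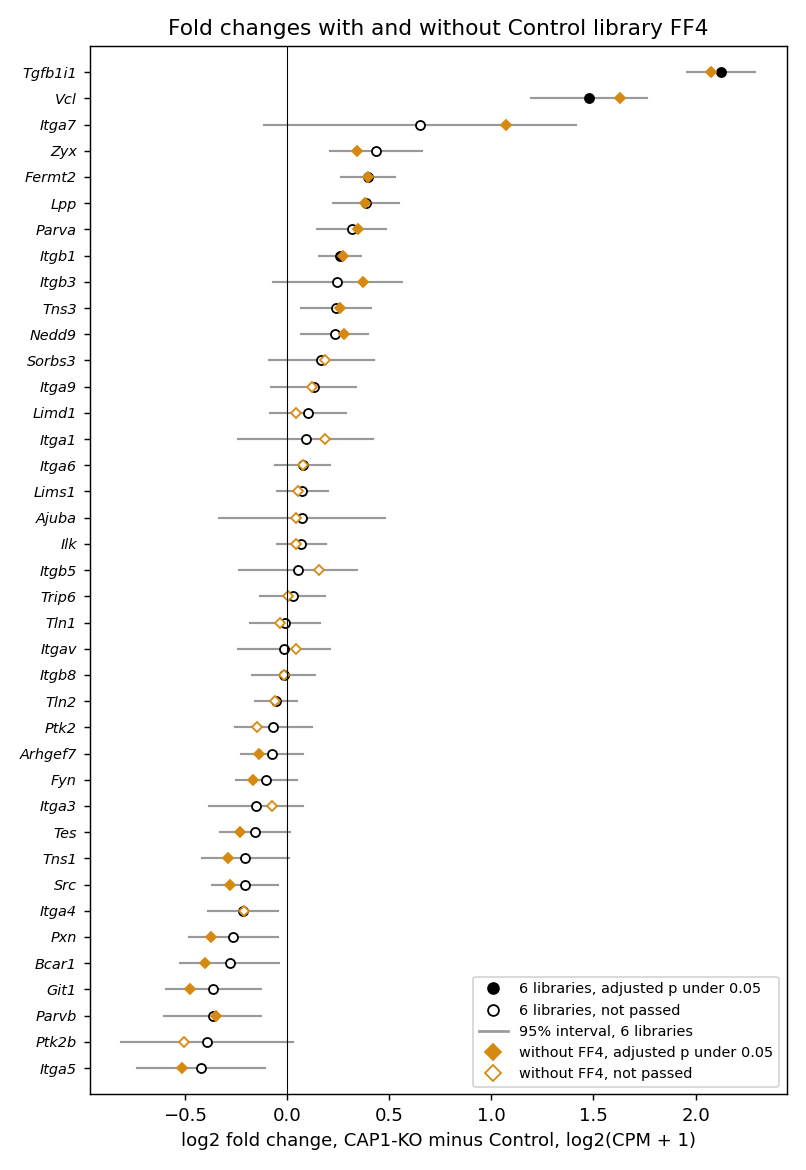
Log2 fold change, CAP1-KO minus Control on the log2(CPM + 1) scale, of each of the 39 genes with all 6 libraries (circles, with 95% intervals) and without Control library FF4 (diamonds). Filled symbols passed the limma test at an adjusted p under 0.05. With all libraries 4 are filled, all on the positive side, and without FF4 there are 11 filled on the positive and 10 on the negative side.

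Other genes of the adhesion pathway were read from lists. These lists were chosen with earlier results of these data known, so their counts are no independent support. Of 23 further scaffold genes 22 were tested. Of these, 4 rose and 0 fell in limma, where 0.562% of all genes tested rose and 0.403% fell. In limma-voom 4 rose and 0 fell, and the median log2 fold change in limma was 0.07. At an unadjusted p under 0.05, 7 were higher, where 7.74% of all genes tested were, and 2 were lower, where 15.3% of all genes tested were. Fblim1 encodes migfilin, which binds filamin and kindlin. Fblim1 stood at 80.8, 81.4 and 77.0 CPM in CAP1-KO libraries, against 30.5, 33.0 and 34.7 CPM in Control libraries, far apart, with a log2 fold change of 1.26 (limma adjusted p = 0.000103). Rsu1 encodes a partner of PINCH. Rsu1 stood at 37.4, 45.6 and 42.9 CPM in CAP1-KO libraries, against 19.4, 19.0 and 22.4 CPM in Control libraries, with a log2 fold change of 1.01 (limma adjusted p = 0.00292). Its call was lost in limma with the Xist level as a covariate, where its adjusted p was 0.0571. Palld, for the actin-bundling palladin, was measured at 8.90, 7.81 and 7.87 CPM in CAP1-KO libraries, against 4.01, 4.38 and 3.29 CPM in Control libraries, with a log2 fold change of 0.91 (limma adjusted p = 0.0121). Actn1, for the crosslinker alpha-actinin, was measured at 58.8, 71.4 and 63.0 CPM in CAP1-KO libraries, against 48.8, 44.9 and 44.7 CPM in Control libraries, with a log2 fold change of 0.47 (limma adjusted p = 0.0408). Palld was lost in limma without FCRE3 (adjusted p = 0.0593), FCRE5 (adjusted p = 0.0771) or FF1 (adjusted p = 0.0663) and with the Xist covariate (adjusted p = 0.202). Actn1 was lost in limma without FCRE3 (adjusted p = 0.0593), FCRE5 (adjusted p = 0.203), FF1 (adjusted p = 0.138) or FF2 (adjusted p = 0.188), with no filter (adjusted p = 0.072) and with the Xist covariate (adjusted p = 0.23).

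Of 14 further integrin subunits, 7 were tested, and limma called 0 in either direction, with 0 at an unadjusted p under 0.05 and 0 in limma-voom. The untested ones were Itgad, Itgae, Itgal, Itgax, Itgb2, Itgb6 and Itgb7. Itga10, the highest per length of those tested, averaged 8.05 ± 0.832 CPM in CAP1-KO and 8.90 ± 0.445 CPM in Control (SD, n = 3 each). Of 35 integrin signalling genes 34 were tested and limma called 0, as did limma-voom, with a median log2 fold change of -0.05. At an unadjusted p under 0.05, 2 of the 34 were higher and 7 lower, beside 7.74% higher and 15.3% lower among all genes tested. Cdc42, a small GTPase of actin control and the highest of these per length, averaged 482 ± 6.13 CPM in CAP1-KO and 457 ± 19.3 CPM in Control (SD, n = 3 each). Of 31 extracellular integrin ligands 30 were tested and limma called 0, as did limma-voom, with a median of 0.00. At an unadjusted p under 0.05, 5 of the 30 were higher and 8 lower, beside the same shares among all genes. Tnc, which encodes the matrix protein tenascin-C of radial glia and the highest of the ligands per length, was measured at 261, 289.9 and 288 CPM in CAP1-KO libraries, against 438, 357 and 314 CPM in Control libraries. All CAP1-KO libraries were lower, and its log2 fold change was -0.39 (limma adjusted p = 0.117). Without FF4, limma placed 4 ligands higher and 11 lower, and 2 signalling genes higher and 13 lower, where 9.36% of all genes tested were higher and 18.9% lower.

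Many adhesion genes are strongly expressed in vessels, meninges and immune cells, so markers of these cells stand beside the results. In bulk tissue fewer cells of a type and less RNA per cell cannot be told apart. The 12 endothelial markers summed to 135 to 151 CPM in CAP1-KO libraries, against 169.7 to 190.4 CPM in Control libraries, with 2 of 12, Kdr and Flt1, lower in the limma test and none higher. These lay on the same side as Itga5. The 11 mural cell markers, which mark pericytes and smooth muscle of vessels, summed to 163 to 187 CPM in CAP1-KO libraries, against 171 to 184 CPM in Control libraries, and none passed. Kdr passed in 5 of the 13 alternatives and Flt1 in 9. The 15 microglia and macrophage markers summed to 103.5 to 135 CPM in CAP1-KO libraries, against 69.8 to 88.9 CPM in Control libraries, with a log2 fold change above 0 in all 14 tested markers. The 12 meningeal fibroblast markers summed to 62.8 CPM in FCRE3 and up to 174 CPM in the other CAP1-KO libraries, against 58.7 to 64.1 CPM in Control libraries. The 9 choroid plexus markers summed to 57.1 to 122 CPM in CAP1-KO libraries, against 3.57 to 10.9 CPM in Control libraries, with 1, Ttr, passing. The 9 radial glia markers summed to 1855 to 1933 CPM in CAP1-KO libraries, against 1837 to 1969.8 CPM in Control libraries, and none passed. The 6 erythroid markers in the table summed to 138 to 249 CPM in CAP1-KO libraries, against 153 to 166 CPM in Control libraries. The part of these marker signals in the levels of the 39 members, the 4 that rose included, was not tested.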

How the data were processed

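Library columns were assigned to CAP1-KO or Control from the genotype in their names. The table that the authors deposited holds, per the file headers, normalized counts on a log2 scale per library, and a log2 fold change, F score, p-value and FDR of their own. The submitters' processing notes name edgeR and STAR without versions, and mm10 and GRCm38 as builds. The read counter is not given in the sources used here. All libraries shared 1 offset of 0.0584 CPM, and without it 100% of the values checked were within 0.01 of a whole read. The check left out the values with the most reads. The 13885 genes that averaged 1 CPM or more over the 6 libraries were tested with limma 3.58.1 and its trend option (R 4.3.3) on log2(CPM + 1), a scale that understates changes of low genes, and p-values were adjusted by Benjamini-Hochberg at 0.05. A count test was foreseen only if the table held counts. Groups of 3 cannot give an exact permutation p under 0.1. Replicates differed by a chi-square per gene of 5.54 to 31.5, so none was taken for a repeat deposit of another. Levels per length used GENCODE exon lengths, and promoters, names and coordinates came from RefSeq GRCm38.p6. Symbols were filled from RefSeq for 456 of 1169 genes without one.

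The members and lists were chosen with earlier results of these data known. Every member is accounted for. Members that passed, members whose groups do not overlap and the highest of each role are given in every library, and from each other list the genes that passed or, where none did, the highest. Other members given in every library (Pxn, Bcar1, Ptk2b and Itga7) were chosen after their values were seen, as was CAP1-KO against FF2 alone. The 13 alternatives were other size factors, scaling to total reads, limma-voom on recovered reads, no filter, a pseudocount of 0.1 CPM, the deposited log2 values as they stand, the Xist level as a covariate, and leaving out each library. Protein sequences were not used here, and single results for some marker genes are not reported here. Figures were drawn with matplotlib 3.10.9.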

Additional observations from a re-analysis of the deposited data

How the results depend on the processing

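The 39 members gave 507 values under 13 alternatives, of which 456 kept their direction and their side of the threshold, 12 lost a call, 19 gained one and 20 values that had not passed, over 8 members, changed sign. Of the gained calls 17 came without FF4 and 2 with scaling to total reads, which moved the members' median to 0.12 and that of all genes by 0.06. A fit that takes the Xist level in as a covariate called 23 genes higher and 3 lower over the whole table, and 2 members higher. This covariate is largely tied to group, since Xist was high in all CAP1-KO libraries and in FF2 but not in FF1 or FF4. A call lost in that fit therefore does not show that sex accounts for the change. With no filter on low values 20 genes fell. Leaving out 1 library gave 33 (without FCRE5) to 1299 (without FF4) genes higher and 3 (without FCRE5) to 2623 (without FF4) genes lower. Members ranged from 2 higher (without FCRE5, FF1 or FF2) to 11 higher (without FF4), and from 0 to 10 lower, the last without FF4. The cause was not tested. Against FF2 alone the log2 fold change of Vcl was 1.70 and that of Tgfb1i1 2.04. No paired analysis was possible because the CAP1-KO and Control columns share no more than 1 number, and as sets their numbers match the labels' replicate numbers in neither group. Depth was alike in all libraries and the lowest member, Itgb3, averaged 2.51 CPM in CAP1-KO and 1.98 CPM in Control, so counting error there is larger than for the other members.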
